A study of Mus musculus with 9 samples.

Results

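The cytosolic ribosomal protein genes were described in bulk RNA sequencing of 9 mouse aorta libraries. Members were chosen by gene symbol: names of the form Rpl or Rps with a number, plus Rplp0, Rplp1, Rplp2 and Rpsa, without the Rps6k kinases and without names marked as pseudogenes. A member also needed a mean of at least 1 FPKM (fragments scaled to transcript length and to the library's size) over the 9 libraries, with a gene that a library does not list counted as 0. By name 82 of 17179 listed symbols matched, and 81 passed the minimum. Rpl39l stood just outside it at a mean of 0.3 FPKM, and Rpl32l was the lowest member inside it at 10.8 FPKM. The members comprised 30 proteins of the small subunit, 43 of the large subunit, 3 proteins of the large-subunit stalk and 5 paralogues (Rpl3l, Rpl7l1, Rpl22l1, Rpl32l and Rps27l). The 76 members that are not paralogues are called the core members. All 81 were listed in every library. The name rule does not take Rps3a1, Fau, Rack1 or Rpl36al, among others, which also belong to the ribosome or encode its proteins.

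All mice were C57BL/6J and were killed on day 28. The normal group, on distilled water, had 2 libraries. The other 7 were from mice given β-aminopropionitrile (BAPN) at 1 g/kg/day to induce aortic dissection; BAPN blocks lysyl oxidase, which cross-links the collagen and elastin of the vessel wall. With BAPN alone there were 2 libraries. A further 2 came from mice that also received TPA, labelled as activating AP-1, a transcription factor, at 50 ng/g/day into the peritoneum from day 1. Another 2 came from mice that also received the AP-1 inhibitor T-5224 by gavage at 5 mg/kg/day, and 1 from a treatment read here as coenzyme Q10 (coQ10) at 10 mg/kg/day. Gavage began on day 7 or 14, and the titles of T-5224 replicates 1 and 2 name 2 and 3 weeks. The labels do not say whether the libraries of a group came from separate mice, so p-values measure only the spread between these samples, which may be technical. The sources used here give neither age and sex nor the number of aortas per library.

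The cytosolic ribosome joins a small subunit, which reads the messenger RNA, to a large subunit, which forms peptide bonds. Its proteins are made in near-equal amounts, and their messenger RNAs are among the most abundant in most cells. Most of these messenger RNAs begin with a run of C and T bases at the cap, the TOP motif (terminal oligopyrimidine), through which the kinase mTOR and the protein LARP1 set how strongly they are translated. Red blood cell precursors carry many ribosomes, and maturing red cells keep globin messenger RNA after much other RNA is gone.

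The start of some of these transcripts shows such a run in the RefSeq promoter table (GRCm38.p6), which held 61 of the 81 members. The core members printed here were picked to show runs of 10 bases or more and do not stand for all core members. The windows shown here run from 30 bases before to 20 bases after the annotated start, 5′ to 3′ on the strand of the gene, with the longest run of C and T near the start in capitals. Rpl35 (chr2:39005112-39005161, minus strand) and Rpl28 (chr7:4792935-4792984, plus strand) are members with high FPKM, Rplp2 (chr7:141447621-141447670, plus strand) is a stalk protein, Rps6 (chr4:86857348-86857397, minus strand) is the small-subunit protein phosphorylated by S6 kinase, and Rpl15 (chr14:18270967-18271016, minus strand) has one of the longer runs. The paralogues Rpl22l1 (chr3:28805478-28805527, plus strand), Rpl7l1 (chr17:46782637-46782686, minus strand) and Rpl3l (chr17:24727796-24727845, plus strand) are set beside them as members whose share of a pair with a parent gene differed between libraries.
Rpl35: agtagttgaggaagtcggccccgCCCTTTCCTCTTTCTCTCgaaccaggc
Rpl28: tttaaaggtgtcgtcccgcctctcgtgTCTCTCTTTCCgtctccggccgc
Rplp2: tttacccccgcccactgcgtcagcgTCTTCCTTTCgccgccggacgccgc
Rps6: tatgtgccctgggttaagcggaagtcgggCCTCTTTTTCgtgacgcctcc
Rpl15: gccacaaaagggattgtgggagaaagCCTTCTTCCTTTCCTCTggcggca
Rpl22l1: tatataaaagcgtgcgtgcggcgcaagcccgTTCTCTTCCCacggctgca
Rpl7l1: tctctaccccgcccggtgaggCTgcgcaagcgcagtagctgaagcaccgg
Rpl3l: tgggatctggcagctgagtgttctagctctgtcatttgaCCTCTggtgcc

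The run was 18 bases long in Rpl35, 17 in Rpl15, 11 in Rpl28 and 10 in Rplp2, Rps6 and Rpl22l1, against 5 in Rpl3l and 2 in Rpl7l1. A run of at least 8 C or T bases within 10 bases before to 20 after the start was found in 34.8% of 66 core member windows (23 of 56 genes) and in 11.2% of 32778 windows of other genes. Over the whole window, from 250 bases before to 50 after the start, CTTTCC on the gene's strand was found in 39.4% of core and 14.1% of other windows. The longer CTCTTTC, which can overlap it, was found on the gene's strand in 22.7% of core and 3.96% of other windows. On either strand CCGGAAG, the core of the binding sequence of ETS factors, was found in 36.4% against 8.8%, and AAGATGGC, part of the sequence bound by YY1, in 10.6% against 2.73%. These matches describe the letters of the reference and not binding in these aortas.

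Marker lists differed between libraries, both between treatment groups and within them. Contractile smooth muscle genes, which define the aortic wall, were listed in all libraries (13 of 13). Their list medians on the log2(FPKM + 1) scale were 8.01 and 8.76 in normal aorta, 6.13 and 5.06 with BAPN, 6.61 and 6.93 with TPA, 8.11 and 5.86 with T-5224, and 7.69 with coQ10. As a share of summed FPKM, haemoglobin made up 1.25% and 1.03% in normal aorta, 68.9% and 74.1% with BAPN, 69.4% and 69.2% with TPA, 40.8% and 11.2% with T-5224, and 5.40% with coQ10. Airway epithelium genes had list medians of 9.96 in normal replicate 1, 8.96 and 8.44 with TPA and 5.27 in T-5224 replicate 2, against 0.44 to 1.75 elsewhere. Over the libraries, list medians ran from 3.80 to 5.48 for macrophages, 4.09 to 6.37 for endothelium, 4.81 to 7.38 for fibroblasts, 3.22 to 9.08 for white adipocytes, 2.19 to 10.07 for cardiac muscle and 0.00 to 5.80 for squamous epithelium. In that order, their median log2 differences in TPA against BAPN were 1.065, -0.44, 1.27, 2.71, 5.18 and 4.69. In BAPN against normal they were -0.22, 0.02, -0.21, -2.80, -3.49 and -0.16. For cardiac muscle, normal replicate 2 minus replicate 1 had a median of -7.87. The part of these tissues in the members' differences was not tested. The tables hold no read counts, so depth is unknown and counting intervals cannot be given. In these bulk samples, fewer cells of a type and less RNA per cell cannot be told apart.

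The members were among the most abundant transcripts of every library. Ranked by FPKM among all genes, the core members had a median rank of 144 and 100 in the normal libraries, 71 and 67 with BAPN, 107 and 108 with TPA, 91 and 53 with T-5224, and 98 with coQ10. Highest on average were Rpl41 (5448 FPKM), a very short protein of the large subunit, then Rps26 (4773) and Rpl35 (4200), while the lowest core member was Rps15a (67.4). The median level of all 81, as log2(FPKM + 1), was 9.07 and 9.24 in the normal libraries, 10.07 and 10.25 with BAPN, 9.35 and 9.32 with TPA, 9.68 and 11.82 with T-5224, and 9.72 with coQ10. T-5224 replicate 2 stood far above all others, the BAPN libraries came next, and the normal libraries were lowest.

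**Figure D1:**
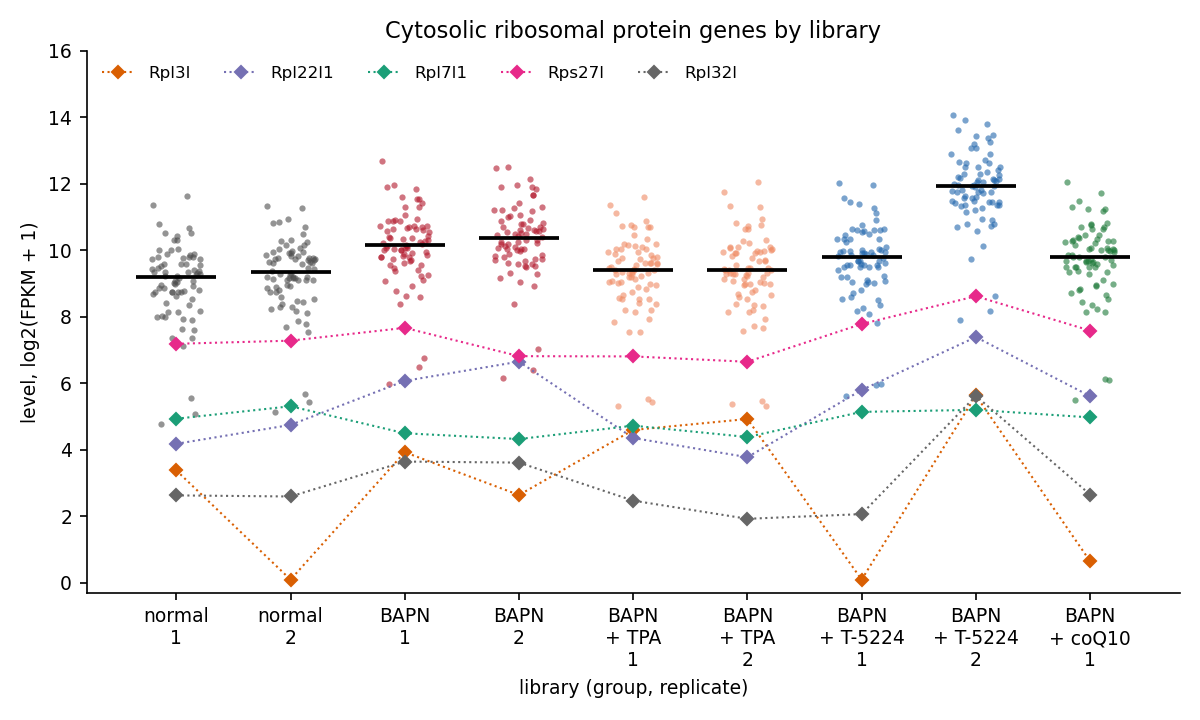
Levels of the 76 core members (points, with the median as a black bar) and the 5 paralogues (diamonds) in each library, as log2(FPKM + 1). The point clouds move together, highest in T-5224 replicate 2 and next in the BAPN libraries, while Rpl3l, Rpl7l1 and Rps27l take other courses. On the TPM scale the members' median difference of BAPN from normal is -0.61.

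This order was nearly the same for each gene. All 76 core members were highest in T-5224 replicate 2, and in 71 of them the BAPN libraries were the next highest. For these 2 counts the shares of all tested genes were not computed. T-5224 replicate 2 was above T-5224 replicate 1 in 76 of 76 core members and in 6121 of 12997 tested genes. Both BAPN libraries lay above both normal libraries in 76 of 76, against 15.0% of all tested genes. Both TPA libraries lay under both BAPN libraries in 74, against 21.2% of all tested genes, and the coQ10 library in 73, against 24.1%. T-5224 replicate 1 also lay under both BAPN libraries, in 71, and the matching share of all tested genes was not computed. Outside the name rule, Rps3a1, Fau, Rack1 and Rpl36al were also highest in T-5224 replicate 2. Rps3a1, a small-subunit protein, read 929 and 1145 FPKM in normal aorta, 1443 and 1606 with BAPN, 943 and 878 with TPA, 1136 and 5340 with T-5224, and 1224 with coQ10.

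With BAPN alone against normal aorta, the members differed by a median of 1.04 (log2), with 80 of 81 above 0, while the median over all 12997 tested genes was -0.51. After rescaling to TPM (each library brought to the same total, haemoglobin included) the members' median was -0.61 and that of all genes -1.92. Relative to all genes the members' median was thus 1.55, and 0.96 to 1.65 under the other scalings and filters with all libraries kept. By subunit the median was 1.17 for the small subunit, 1.00 for the large subunit and 1.23 for the stalk. In limma's test no member passed (adjusted p of 0.0825 at the lowest), against 3.26% of all tested genes (0.9% higher and 2.36% lower), and 4 of 81 had an unadjusted p under 0.05, against 32.4%. The libraries did not overlap, BAPN higher, for 78 members, against 15.0% of all tested genes, and BAPN lower for 1, against 51.1%. Without either T-5224 library, which enter the shared spread only, 56 members passed, all higher with BAPN (22 small subunit, 29 large subunit, 3 stalk and 2 paralogues), and it was the same 56 without the one or the other. Of all tested genes, 28.0% passed without replicate 1 (5.14% higher and 22.8% lower) and 28.2% without replicate 2 (5.16% higher and 23.1% lower).

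Rpl35 read 1465 and 1857 FPKM in normal aorta and 3959 and 5832 with BAPN. Its log2 difference of 1.54 was above the core members' median of 1.05 and upper quartile of 1.23. Rps28, a small-subunit protein at the mRNA exit, read 257 and 431 against 1324 and 1113 FPKM (log2 difference 1.86, SE 0.843, adjusted p = 0.177 in limma). Rps29, a zinc-binding protein of the small subunit, read 139 and 231 against 485 and 716 (1.71, SE 0.686, adjusted p = 0.141 in limma). In both genes each BAPN library was above each normal library by more than the gap within either group. Rpl39, a short protein at the exit tunnel of the large subunit, read 196 and 289 against 811 and 818 FPKM (1.77, SE 0.633, adjusted p = 0.113 in limma). The stalk proteins, which recruit elongation factors, showed the same order: Rplp0 read 773 and 872 against 1606 and 1490 FPKM, Rplp1 read 535 and 709 against 1674 and 1540, and Rplp2 read 1278 and 972 against 2499 and 2734. Rps27a, which is made as a fusion with ubiquitin, read 252 and 314 against 705 and 786. The smallest core differences were those of Rpl10, which joins the large subunit last, at 0.51 (adjusted p = 0.588 in limma), and Rpl7a at 0.53 (adjusted p = 0.520 in limma); under TPM these were -1.16 and -1.13.

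TPA with BAPN was compared with BAPN alone. It uses the same BAPN libraries as the comparison with normal aorta, as do the comparisons of T-5224 and coQ10, so these differences are not independent of each other. The members' median difference was -0.86, with 79 of 81 below 0, and the median over all tested genes was 0.18. The sign of the members' median was the same under every scaling and filter tried, at -1.07 to -0.63, leaving aside a scaling to the core members themselves, which sets their median near 0. No member passed in limma, against 0.0385% of all tested genes (0.0231% higher and 0.0154% lower), and 1 of 81 had an unadjusted p under 0.05, against 10.2%. For 77 members both TPA libraries lay below both BAPN libraries, against 21.2% of all tested genes, and for 1 above them, against 41.4%. With the spread taken from these 4 libraries alone 16 members passed, all lower with TPA, against 7.48% of all tested genes (5.4% higher and 2.08% lower). Without normal replicate 1 and T-5224 replicate 2, 17 members passed, all lower, against 7.87% of all tested genes (5.72% higher and 2.15% lower).

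Rpl35 read 1692 and 1791 FPKM with TPA, inside the range of the normal libraries and under both BAPN libraries (log2 difference from BAPN -1.46, adjusted p = 0.573 in limma). Rps29 read 185 and 210 FPKM with TPA, also inside the normal range (-1.57, adjusted p = 0.496 in limma). Rps20, a protein of the head of the small subunit, read 42.1 and 39.1 FPKM with TPA, 108 and 129 with BAPN, and 33.1 and 42.7 in normal aorta (-1.52, adjusted p = 0.525 in limma). Rpl35, Rps29 and Rps20 were among the 4 members with the lowest differences. Over all members the median log2 level with TPA, 9.35 and 9.32, lay above both normal libraries, at 9.07 and 9.24. The largest difference was that of the paralogue Rpl22l1, at -2.30 (SE 0.565, adjusted p = 0.341 in limma). Rps26, at the mRNA exit of the small subunit, was least different among core members, with 3088 and 4262 FPKM under TPA and 3684 and 4514 under BAPN (-0.17, adjusted p = 0.955 in limma), and its difference was 0.06 under TPM and 0.53 under quantile normalization. Rps2, at -0.33 (adjusted p = 0.855 in limma), turned to 0.02 under quantile normalization.

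T-5224 with BAPN against BAPN alone gave a median difference of 0.58 over the members and 0.35 over all tested genes. The members' value joins a pair of unlike libraries. Their titles name different numbers of weeks, so the length of T-5224 treatment may differ between them. They were fitted as replicates, so limma counted the gap between them as replicate spread. The part of treatment length in that gap was not tested. In replicate 2 the members were above replicate 1 by a median of 2.18 (4.52-fold), with 81 of 81 above 0, while the same median was 0.25 within normal, 0.18 within BAPN and 0.02 within TPA. Without replicate 2 the median difference from BAPN was -0.55, and without replicate 1 it was 1.66. With both replicates it was 1.35 under TPM, where the median of all genes was 0.94, -0.0053 with haemoglobin left out of the FPKM sum and -0.044 under quantile normalization. No member passed in limma, against 0.0308% of all tested genes, and 1 of 81 (Rpl7l1) had an unadjusted p under 0.05, against 18.3%. Both T-5224 libraries lay above both BAPN libraries for 4 members, against 34.2% of all tested genes, and below them for 0, against 12.8%.

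Rpl41 read 4144 and 17100 FPKM with T-5224, against 6575 and 5696 with BAPN, so that the BAPN values lay between the T-5224 replicates. Rplp0 read 1003 and 4985 FPKM, against 1606 and 1490, with the same arrangement. Rps27 (a zinc-finger protein of the small subunit) read 1297 and 11366 FPKM, against 2718 and 3703. Rpsa, the small-subunit protein also known as the laminin receptor, had the highest member difference in this comparison, at 0.99 (adjusted p = 0.446 in limma), with 910 and 3498 FPKM against 882 and 916. Rps16 read 760 and 3437 FPKM against 1217 and 1570 (0.23, adjusted p = 0.887 in limma), a difference of -0.86 without replicate 2. In replicate 2, other lists also lay above replicate 1, by a median of 1.70 for other TOP messenger RNAs, 1.20 for nuclear oxidative phosphorylation genes and 0.75 for mitochondrial ribosomal proteins, against -0.06 over all tested genes. Marker lists differed between these replicates as well: replicate 2 was higher by a median of 7.32 for skeletal muscle, 4.55 for cardiac muscle, 4.44 for airway epithelium and 2.00 for endothelium, and lower for platelets (-3.29), red cells without globins (-2.43) and contractile smooth muscle (-2.02). The part of these cells in the members' difference was not tested.

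The single coQ10 library lay under BAPN by a median of -0.51 over the members, with 78 of 81 below 0, while the median of all tested genes was 0.39; under TPM the members' median was 0.97 and that of all genes 1.64. Relative to all genes the members stood at -0.90, and at -0.99 to -0.65 under the other scalings and filters. This library has no replicate, and its test assumes the spread of the other groups. No member passed in limma, against 0.0154% of all tested genes, and 0 of 81 had an unadjusted p under 0.05, against 19.8%. The coQ10 library was below both BAPN libraries for 76 members, against 24.1% of all tested genes, and above both for 2, against 59.6%. Rps29 read 300 FPKM with coQ10 (-0.97, adjusted p = 0.548 in limma) and Rps27 read 1789 (-0.83, adjusted p = 0.739 in limma); under TPM these were 0.50 and 0.65. Rpl7a read 1282 FPKM, between the BAPN values of 1326 and 1266, at -0.02 (adjusted p = 0.997 in limma), and Rpl10 read 1082 against 1076 and 1013, at 0.05 (adjusted p = 0.980 in limma). The difference of Rpl7a was 1.46 under TPM and 0.11 under quantile normalization, and that of Rpl10 was -0.43 under median-of-ratios scaling, -0.21 with haemoglobin left out of the sum and -0.28 with the length trend removed.

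The members' share of the library was set beside the share of blood. Members took 9.00% and 11.6% of the FPKM sum in normal aorta, 6.55% and 6.82% with BAPN, 4.23% and 4.48% with TPA, 8.79% and 33.2% with T-5224, and 13.2% with coQ10. With haemoglobin left out of the sum, the shares were 9.11% and 11.7%, 21.1% and 26.3%, 13.8% and 14.6%, 14.9% and 37.4%, and 14.0%, in the same order. The BAPN libraries are thus below or above the normal ones in members' share of FPKM, depending on whether haemoglobin is in the sum. Fragment shares were also estimated, as FPKM times transcript length. With haemoglobin included, members took 4.09% and 4.72% of these in normal aorta and 5.52% and 6.07% with BAPN. With haemoglobin left out they took 4.11% and 4.74% against 11.3% and 14.2%, so on this measure BAPN was above normal both ways. These shares were taken of the sum of FPKM times length. That sum came to 92.0% and 88.9% of a library's fragments in normal aorta. With BAPN it came to 136% and 144%, more than the whole library. The FPKM and the lengths used thus do not match there, and the estimated shares are rough. The BAPN and TPA libraries had nearly the same haemoglobin share and differed in the members' median by 0.86, while T-5224 replicate 2, with the highest member level, had 11.2% haemoglobin. Red cell genes other than globins (15 of 15 listed, 0 to 7 of them at 0 in a library) summed to 119 and 65.8 FPKM in normal aorta, 3358 and 3847 with BAPN, 3875 and 3127 with TPA, 1931 and 226 with T-5224, and 171 with coQ10. By median rather than sum, the 10 of these that were tested differed by 0.72 (log2) in TPA against BAPN. Of these 10, 8 were above 0 and 2 below, and 0 passed in limma. B cell genes (8 of 8 listed, 0 to 3 at 0) summed to 64.3 and 560 FPKM with BAPN, 156 and 26.8 with TPA, and 1.46 to 36.9 elsewhere. T cell genes (8 listed of 10, 0 to 3 of these at 0) summed to 22.5 and 186 FPKM with BAPN, 84.8 and 58.3 with TPA, and 2.47 to 19.3 elsewhere. Platelet genes (8 of 8 listed, 0 to 3 at 0) summed to 625 and 674 FPKM with BAPN, 486 and 197 with TPA, 672 and 189 with T-5224, and 40.9 to 73.2 elsewhere, and neutrophil genes (11 of 11 listed, 0 to 2 at 0) to 1916 and 1087 with BAPN, 876 and 315 with TPA, and 31.1 to 397 elsewhere. Contractile smooth muscle genes differed by a median of -3.43 in BAPN against normal, with 13 of 13 below 0 and 2 that passed in limma, and by 1.40 in TPA against BAPN, with 13 of 13 above 0 and 0 that passed (2 at an unadjusted p under 0.05). The part of these cells in the members' differences was not tested.

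**Figure D2:**
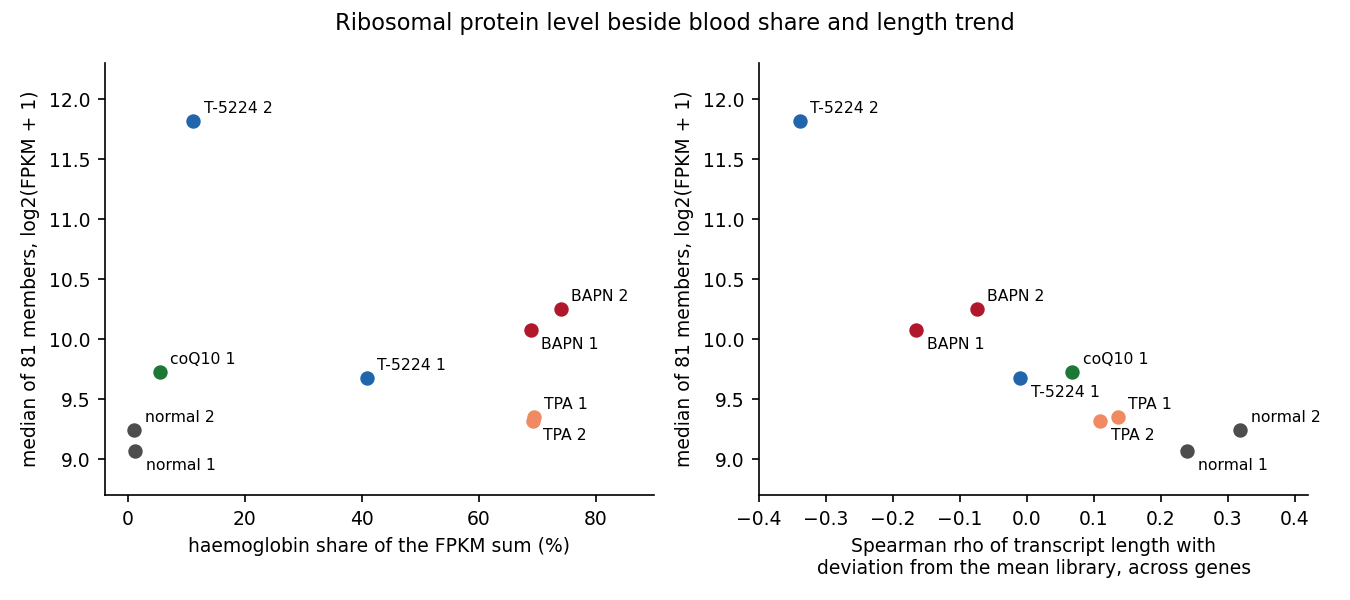
The median level of the 81 members in each library, as log2(FPKM + 1), against the haemoglobin share of the FPKM sum (left) and against the rank correlation, across genes, between transcript length and each library's departure from the average library (right). The BAPN and TPA libraries have haemoglobin shares of 68.9% to 74.1% and differ in member level, and T-5224 replicate 2 is highest at 11.2% haemoglobin and has the most negative length correlation.

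The members are short: their transcripts, taken as the median annotated protein-coding transcript of each gene, ran from 367.5 to 3706 nt with a median of 696.5, against a median of 2121 nt over tested genes. Libraries differed in how their values moved with length. Across genes, which are not independent replicates, the Spearman correlation between transcript length and each library's departure from the average library was 0.24 and 0.32 in normal aorta, -0.16 and -0.07 with BAPN, 0.14 and 0.11 with TPA, -0.01 and -0.34 with T-5224, and 0.07 with coQ10. The library with the most negative value, T-5224 replicate 2, had the highest member level, and the normal libraries, with the most positive values, had the lowest. Among genes shorter than 1 kb, the 65 members differed by a median of 1.09 in BAPN against normal, and 2261 other genes by -0.26. The same medians were -0.89 and 0.06 for TPA against BAPN, 0.57 and 0.47 for T-5224, and -0.52 and 0.32 for coQ10. After each library's trend with length was removed, the members' median was 8.84 and 9.49 in normal aorta, 10.23 and 10.54 with BAPN, 9.55 and 9.49 with TPA, 9.60 and 11.55 with T-5224, and 9.62 with coQ10, which left the order of T-5224 replicate 2 and BAPN at the top.

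**Figure D3:**
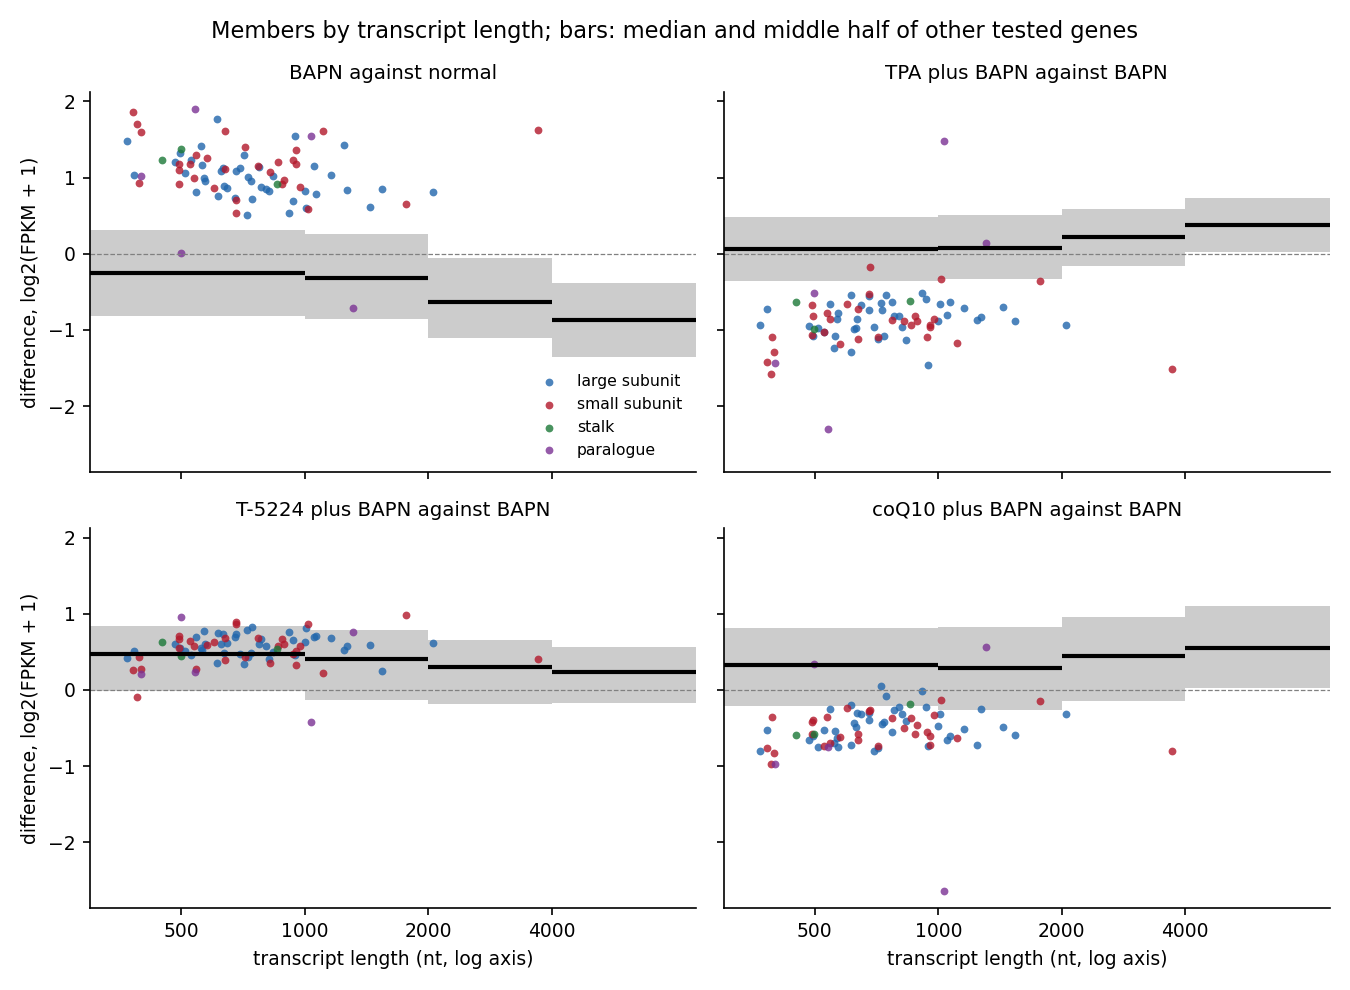
Differences of the members on the log2(FPKM + 1) scale against transcript length (log axis) in each comparison, with the median and the middle 50% of other tested genes by length. Short members lie above other short genes in BAPN against normal (medians 1.09 and -0.26) and below them in TPA against BAPN (-0.89 and 0.06); under TPM the members' median in BAPN against normal is -0.61 and all genes' -1.92.

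Other genes of protein synthesis were taken from lists, and their medians are given as differences in log2 for BAPN against normal first, then for TPA, T-5224 and coQ10 against BAPN. The 18 tested TOP messenger RNAs outside the rule, such as elongation factors, had 0.40, -0.53, 0.53 and -0.12. Tpt1, a TOP messenger RNA outside the ribosome, stood at 1.32 in BAPN against normal (SE 0.854, adjusted p = 0.316 in limma), and Hnrnpa1, a splicing factor, at 0.76 (adjusted p = 0.157 in limma). The 30 initiation factors, which bring the small subunit to the messenger RNA, had -0.26, -0.20, 0.48 and 0.15, and the 29 ribosome biogenesis genes, which make and assemble subunits in the nucleolus, -0.33, -0.03, 0.40 and 0.13. In limma 0 genes of these 3 lists passed in any comparison, and unadjusted p-values under 0.05 numbered 0, 1, 1 and 0 for TOP messenger RNAs, 5, 0, 2 and 1 for initiation factors and 6, 2, 4 and 2 for biogenesis. Among 12 genes of translation signalling, with -1.02, 0.48, 0.44 and 0.55, Eef2k passed and was lower with BAPN than in normal aorta, at -2.52 (SE 0.497, adjusted p = 0.0499 in limma); it encodes the kinase that inhibits elongation factor 2. The call was at the threshold: Eef2k passed in 5 of 20 alternatives and missed it in 15, with differences of -3.97 to -1.87 and adjusted p-values of 0.00166 to 0.246 in limma. Leaving out any 1 of the normal, BAPN, TPA or coQ10 libraries ended it. Unadjusted p-values under 0.05 numbered 7, 1, 0 and 3 of 12 in the signalling list. Mtor stood at -1.27 (adjusted p = 0.0593 in limma) and Eif4g1, the scaffold of the cap-binding complex, at -1.64 (adjusted p = 0.0552 in limma). These genes are long, with a median of 3579 nt over the signalling list.

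Lists of short or abundant genes outside cytosolic translation gave other values. The 77 mitochondrial ribosomal proteins, with a median transcript of 1047 nt, stood at -0.32, 0.14, 0.77 and 0.43, in the same order of comparisons. The 75 nuclear oxidative phosphorylation genes, with a median of 637 nt, shorter than the members, stood at -0.32, 0.33, 0.76 and 0.68. The 37 tested proteasome genes stood at 0.02, -0.22, 0.58 and 0.18. In limma 0 of these genes passed in any comparison, and unadjusted p-values under 0.05 numbered 6, 2, 22 and 4 for mitochondrial ribosomal proteins, 1, 1, 3 and 2 for oxidative phosphorylation, and 2, 0, 5 and 0 for the proteasome. Relative to the median of all tested genes in the same library, the members stood at 5.39 and 5.86 in normal aorta, 7.05 and 7.22 with BAPN, 6.13 and 6.15 with TPA, 6.37 and 8.65 with T-5224, and 6.31 with coQ10, so that on this scale, too, T-5224 replicate 2 was highest and BAPN next.

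**Figure D4:**
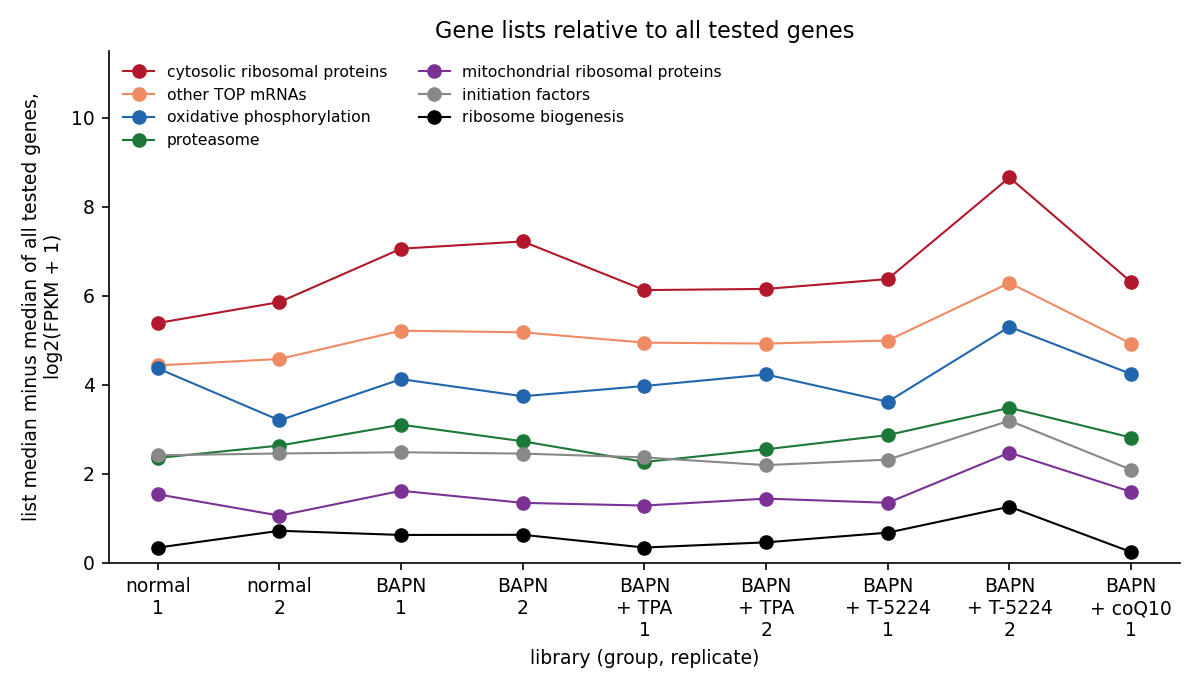
Median of each list minus the median of all tested genes in the same library, as log2(FPKM + 1), for the members and for lists of other genes of protein synthesis, mitochondria and the proteasome. The members' line runs from 5.39 in normal replicate 1 to 7.22 in BAPN replicate 2 and 8.65 in T-5224 replicate 2.

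Within the core, the members kept their levels relative to each other while the family as a whole ranged over 6.67-fold from the lowest to the highest library, and over 2.23-fold without T-5224 replicate 2. Each member's level was taken minus the core median of the same library, and the range of this value over the 9 libraries had a median of 0.51 (log2). It was under 1 in 72 of 76 core members. The ranges of 1 or more were those of Rps28 (1.41), Rps29 (1.20), Rpl39 (1.09) and Rps2 (1.03), and except for Rps2 these encode very short proteins. Across the 81 members the Spearman correlation of transcript length with the difference was -0.32 in BAPN against normal and 0.27 in TPA against BAPN, and -0.26 and 0.18 over all tested genes, as a description only. Ribosomal proteins have many processed pseudogenes with nearly the same sequence, and no source used here says how the counting split shared reads, so the level of a single member is less certain than the family's.

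Of the paralogues, Rpl3l, Rpl7l1 and Rps27l departed from the order of the core members, while Rpl22l1 and Rpl32l were highest in T-5224 replicate 2 and next highest with BAPN. A paralogue's share of the pair with its parent is a ratio inside a library and does not move with the library's scaling. Rpl22l1, which can replace Rpl22 in the ribosome, read 17.1 and 25.9 FPKM in normal aorta, 66.3 and 99.6 with BAPN, 19.5 and 12.7 with TPA, 54.7 and 167 with T-5224, and 48.0 with coQ10. Its difference in BAPN against normal was the largest of any member, at 1.90 (SE 0.565, adjusted p = 0.0825 in limma). Of the sum of Rpl22l1 and Rpl22, it made up 27.0% and 33.9% in normal aorta, 42.8% and 54.5% with BAPN, 29.98% and 22.8% with TPA, 47.5% and 36.7% with T-5224, and 41.1% with coQ10. The share was higher in each BAPN library than in each normal or TPA library, and the T-5224 values lay on either side of the lower BAPN value. The pair differs in length, with 538.5 nt for Rpl22l1 and 2048 nt for Rpl22.

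Rpl7l1, a nucleolar relative of Rpl7, was the one member that was lower in both BAPN libraries than in both normal libraries. It read 29.6 and 38.7 FPKM in normal aorta, 21.6 and 19.03 with BAPN, 25.5 and 19.9 with TPA, 34.3 and 35.8 with T-5224, and 30.5 with coQ10 (BAPN against normal -0.71, SE 0.280, adjusted p = 0.136 in limma). It differed least of all members between the T-5224 replicates, by 0.06 (log2). Its share of the pair with Rpl7 was 4.32% and 4.58% in normal aorta, 1.78% and 1.34% with BAPN, 3.44% and 2.84% with TPA, 3.36% and 0.87% with T-5224, and 3.17% with coQ10.

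Rps27l, a paralogue of Rps27 known as a target of p53, read 145 and 155 FPKM in normal aorta, 202 and 112 with BAPN, 111 and 99.3 with TPA, 219 and 392 with T-5224, and 191 with coQ10. The BAPN libraries lay on either side of the normal ones (difference 0.01, adjusted p = 0.993 in limma; -1.65 under TPM). Its share of the pair was 14.1% and 11.2% in normal aorta, 6.93% and 2.93% with BAPN, 6.28% and 8.99% with TPA, 14.5% and 3.33% with T-5224, and 9.65% with coQ10, lower in both BAPN libraries than in both normal ones.

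Rpl3l (chr17:24727826-24736143, next to Rps2 on the same chromosome) replaces Rpl3 in striated muscle. It read 9.41 and 0.07 FPKM in normal aorta, 14.2 and 5.24 with BAPN, 23.2 and 29.4 with TPA, 0.07 and 48.7 with T-5224, and 0.57 with coQ10, and the normal and T-5224 pairs each held a high and a low library. Skeletal muscle genes (12 of 12 listed, 1 at 0 in T-5224 replicate 1 and 0 in the other libraries) summed to 3320 and 22.2 FPKM, 4022 and 2546, 9814 and 18361, 25.2 and 10883, and 60.4, in the same order. The libraries low in Rpl3l were those low in these genes, and the part of striated muscle in its differences was not tested. Rpl3l made up 0.0145% to 7.41% of the pair with Rpl3. Rpl32l, the lowest member, read 5.19 and 5.05 FPKM in normal aorta, 11.53 and 11.3 with BAPN, 4.55 and 2.80 with TPA, 3.19 and 48.3 with T-5224, and 5.30 with coQ10. It made up 0.34% to 0.91% of the pair with Rpl32 over the libraries. Whether its values came from reads of Rpl32 was not tested.

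**Figure D5:**
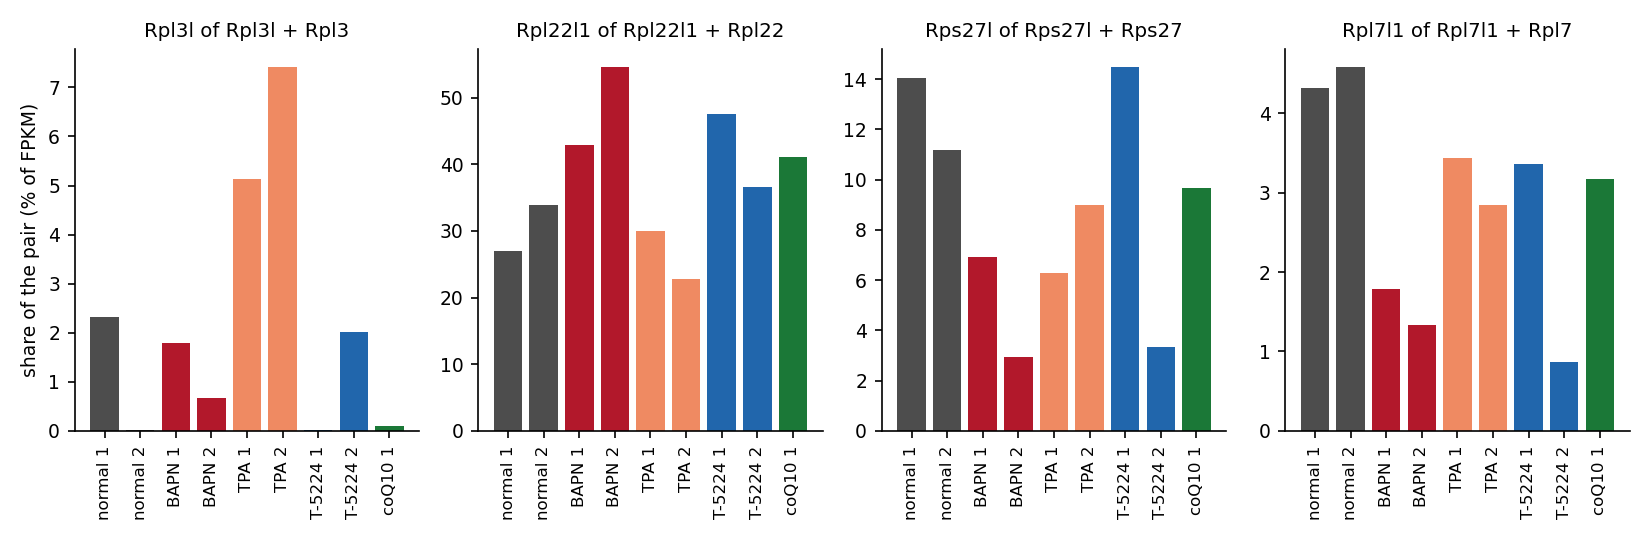
Share of each paralogue in the FPKM sum of the paralogue and its parent gene (%), by library, with bars from 0. Rpl22l1 takes 42.8% and 54.5% with BAPN against 27.0% and 33.9% in normal aorta, Rps27l and Rpl7l1 take less with BAPN than in normal aorta, and Rpl3l is near 0 in normal replicate 2, T-5224 replicate 1 and coQ10.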

How the data were processed

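For each library the authors deposited a table of gene symbols and FPKM with 2 decimals, from which genes at 0 were left out. The genome build was mm10, per the submitters' processing notes. Aligner, counting tool and annotation: not given in the sources used here. Per the labels' protocols, Trizol was used for RNA isolation and a TruSeq RNA kit for the libraries. The deposited FPKM carry no counts, so the depth per sample is unknown and limits the precision of low values.

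Unlisted genes were set to 0, and log2(FPKM + 1) was computed from the deposited FPKM. The 12997 genes with a mean of at least 1 FPKM were fitted in limma 3.58.1 (R 4.3.3; trended variance, 5 groups, 9 libraries, 4 residual degrees of freedom). Two-sided p-values were adjusted (Benjamini-Hochberg) over all tested genes, with a threshold of 0.05, in 4 comparisons. The script was tested on simulated data with less spread than these data and planted differences larger than the members' median differences. That test does not show how many differences of the members' size would be found here. Lengths came from GENCODE release M 21 (97.3% of tested genes), and coordinates and promoters from RefSeq.

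Alternatives were an offset of 0.1, no filter, median-of-ratios scaling, TPM, haemoglobin left out of the sum, quantile normalization, removal of the length trend (lowess, span 0.3), a fit of the 2 groups alone, a replicate block, and leaving out libraries. Other steps used scipy 1.17.1, numpy 2.4.6 and pandas 2.3.3 in python 3.11.15, with plots from matplotlib 3.10.9.

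The members and lists were chosen with earlier results of these data known. Besides the translation, mitochondrial and proteasome lists, there were lists of markers for red cells, haemoglobin, neutrophils, platelets, T cells, B cells, macrophages, endothelium, fibroblasts, smooth, skeletal and cardiac muscle, airway and squamous epithelium and white adipocytes. Where fewer than 4 members passed, the 4 highest and 4 lowest differences of a comparison were named. Also taken were the 5 highest and 5 lowest members by mean FPKM, the paralogue pairs, the stalk proteins, Rpsa, Rps27a, and up to 3 genes by p of each translation list, of which the text gives a selection. Rps3a1, Tpt1, Rps6 and Rpl15 were named after their values were seen.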

Additional observations from a re-analysis of the deposited data

How the results depend on the processing

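In limma, 0 members passed in all 4 comparisons, with an unadjusted p under 0.05 for 4, 1, 1 and 0 of 81. In BAPN against normal, 56 members passed without T-5224 replicate 1 and 56 without T-5224 replicate 2, 35 without normal replicate 1 and T-5224 replicate 2 (33 of them among the 56), and 2 under TPM (Rpl7l1 and Rps27l, both lower); leaving out 1 library gave 0 to 56. The calls over all tested genes in these 4 settings were 3633, 3670, 4032 and 9637 (72.9% of genes lower under TPM). In TPA against BAPN, 16 passed in a fit of the 2 groups alone and 17 without normal replicate 1 and T-5224 replicate 2, with 972 and 1023 of all tested genes. In T-5224 against BAPN, 2 passed under TPM and 2 without those libraries, with 3168 and 2245 of all tested genes. In coQ10 against BAPN, 2 passed under TPM and 1 (Rpl3l) without those libraries, with 7328 and 2967 of all tested genes. Leaving out 1 library gave 0 in the last 3 comparisons.

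The members' median in BAPN against normal was 1.62 under median-of-ratios scaling, -0.61 under TPM, 1.19 with haemoglobin left out, 0.88 under quantile normalization, 1.24 with the length trend removed, and 0.94 to 1.13 when 1 library was left out. In TPA against BAPN it was -1.07, -0.64, -0.75 and -0.63 under the first 4 of these, and -0.93 to -0.75 leaving out 1 library. In T-5224 against BAPN it was 1.35 under TPM, -0.0053 with haemoglobin left out, -0.044 under quantile normalization, -0.55 without normal replicate 1 and T-5224 replicate 2, and -0.55 to 1.66 leaving out 1 library. In coQ10 against BAPN it was -0.997 under median-of-ratios scaling, 0.97 under TPM, -0.77 with haemoglobin left out, -0.82 with the length trend removed, and -0.61 to -0.36 leaving out 1 library. TPM divides each library by its FPKM sum, so the shifts under TPM follow from these sums. They were 5.79e+05 and 5.02e+05 in normal aorta, 1.63e+06 and 1.80e+06 with BAPN, 9.23e+05 and 1.10e+06 with T-5224, and 6.16e+05 with coQ10. The cause of the shifts under the other alternatives was not tested. Scaling to the core members, an alternative chosen after seeing the data, gave 0 members passing in each comparison.

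Of the values of single members under alternatives, 522 kept their direction and side of the threshold, 26 passed it and 44 reversed. In BAPN against normal the reversed values were Rps27l (-1.65 under TPM, -0.04 without normal replicate 1 and T-5224 replicate 2, -0.42 to 0.43 leaving out 1 library), Rpl10 (-1.16 under TPM) and Rpl7a (-1.13 under TPM). In TPA against BAPN they were Rps2 (0.022 under quantile normalization), Rps26 (0.059 under TPM, 0.53 under quantile normalization, -0.40 to 0.064 leaving out 1 library) and Rpl7l1 (-0.049 under median-of-ratios scaling, -0.025 to 0.32 leaving out 1 library). In T-5224 against BAPN they were Rpl3l (0.18 under TPM, -3.19 to 2.35 leaving out 1 library), Rps29 (0.67 under TPM, -1.11 to 0.92), Rpl32l (-0.11 under median-of-ratios scaling, -0.39 with haemoglobin left out, -0.20 under quantile normalization, -0.11 with the length trend removed, -1.56 to 1.99 leaving out 1 library), Rps16 (-0.14, -0.36, -0.35 and -0.21 under the same 4, -0.86 to 1.31) and Rps26 (-0.033 to 1.82). In coQ10 against BAPN they were Rpl32l (0.33), Rps29 (0.50), Rps27 (0.65) and Rpl7a (1.46) under TPM, Rpl7a again under quantile normalization (0.11) and leaving out 1 library (-0.049 to 0.017), Rpl10 (-0.43 under median-of-ratios scaling, -0.21 with haemoglobin left out, -0.28 with the length trend removed) and Rps27l (-0.14 under median-of-ratios scaling, -0.037 under quantile normalization, -0.082 to 0.77 leaving out 1 library).

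No sign of pairing by replicate number was seen, with correlations of replicate differences from -0.437 to 0.176 over the pairs of groups. Such correlations cannot show that the samples were unpaired, since the replicates of a group also differed in tissue content. With a replicate block, which could not be fitted for the single coQ10 library, 0 members passed in each of the other 3 comparisons, the medians were 1.04, -0.86 and 0.58, and 8, 2 and 0 of all tested genes passed.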
